A study of Homo sapiens with 12 samples.

Results

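The response of wild-type THP-1 macrophages to interferon-gamma (IFN-γ) was followed across all genes. THP-1 is an established human monocytic leukaemia cell line. All cells had been turned into macrophage-like cells with phorbol 12-myristate 13-acetate (PMA, 20 ng/ml for 24 h), a phorbol ester that makes them adhere and differentiate, and the medium was then changed. The next day recombinant human IFN-γ was added to 1 set of wells, while the other set had PMA alone. The members are the 3 wild-type libraries labelled PMA and IFN-γ and the 3 wild-type libraries labelled PMA alone, 6 of the 12 libraries of the study. The other 6 came from THP-1 cells labelled SDC3-KO (a knockout of the gene for syndecan-3, a cell-surface heparan sulphate proteoglycan), also 3 with and 3 without IFN-γ after PMA. The labels gave no dose or duration of IFN-γ, did not say how many edited lines were used, and were silent on whether the wells behind the 3 libraries of each kind were grown independently. The p-values below therefore measure the spread between these libraries, which may be technical.

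IFN-γ is the cytokine by which T cells and natural killer cells activate macrophages. It binds the receptor chains IFNGR1 and IFNGR2, the kinases JAK1 and JAK2 activate transcription factors of the STAT family, and STAT dimers bind DNA elements called GAS and switch on a first set of genes that includes the transcription factor IRF1. IRF1, and complexes that hold STAT2 and IRF9, bind a different element, the ISRE, in a second and larger set. In macrophages the outcome is known for more antigen presentation, chemokines that attract T cells, and enzymes and GTPases that act against microbes inside the cell.

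The 6 libraries held 23616738 to 29094362 counts each. Of the 58051 genes in the deposited table, 17119 had enough counts to be tested and 40932 did not. Levels are given as CPM (counts scaled to equal library totals) after TMM scaling. Values are listed as untreated and then IFN-γ libraries, ± is the SD over 3 libraries, and log2 fold changes are IFN-γ over untreated. The SE is the size of the log2 fold change divided by the square root of the test's F statistic. For genes with almost no counts in one group it is too small to serve as a standard error. A gene is said to have risen or fallen where edgeR's quasi-likelihood test gave a Benjamini-Hochberg adjusted p under 0.05. The summed level of 15 macrophage markers was 7605 to 7829 CPM without and 9333 to 9472 CPM with IFN-γ, so the macrophage label held in both groups (CD68 could not be judged, since most of its exon sequence is shared with an overlapping gene and it was counted at under 1 CPM). Markers of monoblasts, the dividing precursor state of THP-1, summed to 213 to 229 CPM and 29.2 to 32.4 CPM. Among markers of other cell types the haemoglobin genes HBA1, HBA2 and HBB, the T cell gene CD2, IFNG, the B cell gene MS4A1, the fibroblast genes LUM and DCN and the epithelial genes KRT19, KRT5 and CDH1 had no counts in these libraries. The summed T and NK markers went from 5.15 to 5.87 CPM up to 14.5 to 16.8 CPM, and the B cell markers from 17.5 to 21.7 CPM up to 42.8 to 47.2 CPM. These sums followed CD7 (0.823 to 12.4 CPM on average), PAX5 (2.74 to 14.2 CPM) and BANK1 (3.71 to 18.5 CPM). The summed epithelial markers went from 13.8 to 16.5 CPM up to 29.9 to 31.3 CPM, most of it the claudin gene CLDN7 (13.3 to 28 CPM). The part of these shifts in the results below was not tested. In bulk RNA, fewer cells of a type and less RNA per cell cannot be told apart.

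IFN-γ changed 56.5% of the tested genes, 9666 in all. Of these, 4896 rose (28.6% of those tested) and 4770 fell (27.9%). Counts of list members that rose or fell, given below, are to be read beside these shares. Protein-coding genes were called more often, 8470 of 13298. Most changes were small: 6890 of the called genes differed by less than 1 on the log2 scale. At a log2 fold change of at least 1, 1268 genes rose (7.41%) and 1508 fell (8.81%). The large changes were mostly rises: 288 genes rose and 133 fell by at least 3, and 96 rose and 23 fell by at least 5. The 3 libraries of one group did not overlap the 3 of the other for 9177 of the called genes. Over all 17119 tested genes, called or not, this held for 10354. The first principal component of the wild-type libraries, which separated the groups, held 96.0% of the variance. The near balance of rises and falls rested on the scaling. Rises made up 50.7% of the calls with TMM, 37.5% with upper-quartile scaling and 25.1% with no scaling, and the median gene moved by -0.11 and -0.25 against the main value under these alternatives. Small changes on the log2 scale are therefore relative to the average gene. Rises and falls of at least 1 were found among all classes of transcript: 1009 protein-coding genes rose and 1191 fell of 13298 tested, 144 long non-coding RNAs rose and 220 fell of 1949, and 97 pseudogenes rose and 66 fell of 1642.

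**Figure D1:**
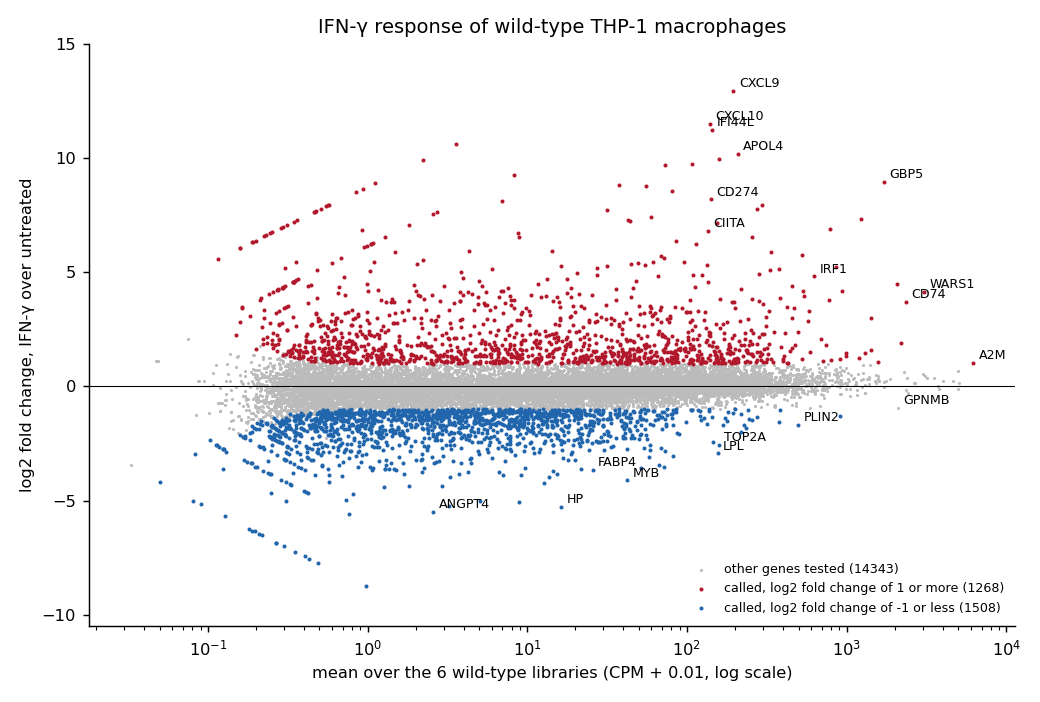
Log2 fold change (IFN-γ over untreated, wild type) of each tested gene against its mean level in CPM on a log axis, with called rises and falls coloured and some named genes marked. The points spread further above 0 than below it, with CXCL9 and CXCL10 at the top and HP and MYB among the lowest marked genes.

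The IFN-γ signalling chain itself was strongly altered, from the kinase JAK2 down to the transcription factors. Of 13 genes for the receptor and its JAK-STAT pathway, 11 rose, IFNGR1 fell and JAK1 did not pass the test. Their median log2 fold change was 1.94, against -0.02 over all tested genes. IRF1, an early transcription factor of the response, stood at 42.3, 44.8 and 41.1 CPM without and at 1226, 1219 and 1192 CPM with IFN-γ. The groups lay far apart, with a rise of 4.83 (SE 0.04, adjusted p = 1.8e-38). CIITA, the master regulator of MHC class II genes, was close to silent at 1.72, 2.81 and 2.48 CPM and reached 275, 277 and 257 CPM. Its rise of 6.83 (SE 0.09, adjusted p = 1.1e-33) was the greatest of the 13. JAK2 rose from 67.4 ± 7.36 to 555 ± 24.9 CPM (3.04), STAT2 from 266 ± 6.03 to 1115 ± 17.7 CPM (2.07) and IRF9, the DNA-binding partner of STAT2, from 2.26 ± 0.545 to 10.5 ± 0.240 CPM (2.23). JAK1 measured 153 ± 0.940 and 156 ± 7.09 CPM, and its libraries overlapped (log2 fold change 0.03, adjusted p = 0.56, but a fall of -0.22 with no scaling). Of the receptor chains, IFNGR1, which binds the ligand, fell from 580 ± 38.3 to 421 ± 20.7 CPM (-0.46), while IFNGR2 rose from 57.8 ± 0.730 to 76.3 ± 2.90 CPM (0.40).

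Feedback inhibitors of the pathway rose too. Among 13 genes for brakes on JAK-STAT signalling 9 rose, 1 fell and 3 did not pass the test, with a median of 0.79. SOCS1, which blocks the JAK kinases, had 0.381, 0.247 and 0.268 CPM without and 65.0, 60.8 and 63.0 CPM with IFN-γ. The treated libraries lay close together and far above the untreated ones, with a rise of 7.72 (SE 0.14, adjusted p = 1.1e-29). USP18, which restrains the type I interferon receptor, rose from 1.85 to 9.76 CPM (2.40), SOCS3 from 6.03 to 25.1 CPM (2.05) and PTPN2, a phosphatase of the pathway, from 37.5 to 107 CPM (1.51). SOCS2 was the member that fell (11.3 to 8.52 CPM, -0.40). Of 20 further IRF, BATF and STAT family factors and partners 16 rose and none fell. ETV7, a repressor of the ETS family, went from 0.252 ± 0.164 to 110 ± 3.50 CPM (8.77) and BATF2 from 2.81 ± 0.846 to 140 ± 3.90 CPM (5.63). BATF3 rose from 1.07 to 14.6 CPM (3.76), IRF7 from 3.12 to 35.7 CPM (3.52), STAT4 from 1.01 to 11.5 CPM (3.50), and the macrophage lineage factor IRF8 from 51.3 to 119 CPM (1.22).

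Stretches before the start of 5 of these strongly rising genes are printed to show what the STAT and IRF elements look like in letters. They come from RefSeq on GRCh38.p14, run 5′ to 3′ along the gene's strand, and are 160 bases long. Capitals mark letter matches to TTCNNNGAA (GAS) or TTTCNNTTTC (ISRE), searched on both strands. The stretches are IRF1 at chr5:132490804-132490963 (minus strand), CXCL9 at chr4:76007550-76007709 (minus), CXCL10 at chr4:76023578-76023737 (minus), CD274 at chr9:5450312-5450471 (plus) and SOCS1 at chr16:11256225-11256384 (minus).
IRF1: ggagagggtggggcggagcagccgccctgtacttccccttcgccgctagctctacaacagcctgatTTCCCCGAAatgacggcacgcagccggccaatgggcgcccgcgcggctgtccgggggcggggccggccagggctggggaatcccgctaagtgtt
CXCL9: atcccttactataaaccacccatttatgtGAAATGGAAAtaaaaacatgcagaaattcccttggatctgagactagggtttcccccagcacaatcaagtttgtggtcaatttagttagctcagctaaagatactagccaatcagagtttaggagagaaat
CXCL10: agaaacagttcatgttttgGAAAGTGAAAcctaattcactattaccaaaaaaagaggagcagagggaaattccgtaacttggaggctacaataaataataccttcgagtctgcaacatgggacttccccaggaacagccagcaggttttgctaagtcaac
CD274: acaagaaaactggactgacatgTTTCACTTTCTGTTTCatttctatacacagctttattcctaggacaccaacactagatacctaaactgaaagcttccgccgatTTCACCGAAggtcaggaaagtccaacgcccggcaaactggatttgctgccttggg
SOCS1: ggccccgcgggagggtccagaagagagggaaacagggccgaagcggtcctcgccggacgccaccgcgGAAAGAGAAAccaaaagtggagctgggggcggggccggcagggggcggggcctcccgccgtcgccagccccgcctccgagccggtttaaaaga
In IRF1 the capitals are a GAS match that runs from base 124 to base 116 before the start. CXCL9 has an ISRE match on the opposite strand at 171 to 162 bases before the start, CXCL10 at 221 to 212 and SOCS1 at 113 to 104. CD274 has a GAS match at 125 to 117 and a pair of overlapping ISRE matches at 208 to 199 and 202 to 193. No GAS match overlapped an ISRE match in these stretches. Of 35114 windows in the RefSeq table, each the 250 bases before a start, 3.02% held an ISRE match and 6.57% a GAS match. Only 11559 of 15731 tested genes with a symbol had such a window (73.5%), and 57 of the 89 that rose by at least 5. The shares among genes that rose and genes that fell are not reported here. A letter match describes the sequence and does not show that a factor bound there.

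The 3 ligands of CXCR3, the chemokine receptor of activated T cells, were among the greatest rises. CXCL9 had 0, 0.0617 and 0.0671 CPM without IFN-γ and 359, 434 and 379 CPM with it. Its log2 fold change was 12.94 (SE 0.17, adjusted p = 2.5e-34), the highest among genes with an official symbol that reached 5 CPM. CXCL10 went from 0, 0.123 and 0.134 CPM to 237, 315 and 281 CPM (11.51, SE 0.18, adjusted p = 1.5e-31). Untreated counts of CXCL9 and CXCL10 were close to 0, so the sizes and their rank are loosely fixed and these SEs too small. CXCL11 had 2 counts over the 3 untreated libraries and 1233 over the treated ones, 734-fold higher with an exact 95% counting interval of 203 to 6071. No treated library overlapped an untreated one for any of the 3 genes. Per kilobase of exon CXCL10 and CXCL9 stood at 236 and 143 CPM per kilobase and CXCL11 at 8.66 CPM per kilobase with IFN-γ. The counts treat the 2 mates of a read pair as separate, so counting intervals are too narrow and floors too low. The genes lie close together on chromosome 4, at chr4:76001275-76041415.

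Other chemokines split. Of 9 CC chemokines tested 4 rose, 4 fell and 1 did not pass the test (median -0.74, or -0.05 with no filter on low counts and 1.47 with the members at 5 CPM or more alone). The risers CCL2, CCL7 and CCL8, which recruit monocytes, are neighbours at chr17:34255218-34321402. CCL2 rose from 8.75 ± 0.983 to 58.0 ± 3.46 CPM (2.72), CCL7 from 0.457 ± 0.260 to 9.88 ± 1.14 CPM (4.38), and CCL8 had 13.8 ± 0.435 CPM with IFN-γ after 0.152, 0 and 0 CPM. CCL24, an eosinophil attractant of the alternatively activated state, fell from 13.2 ± 1.16 to 1.36 ± 0.159 CPM (-3.27), CCL3 from 1.58 to 0.298 CPM (-2.40) and CCL22 from 12.5 to 7.44 CPM (-0.74). The neutrophil attractants CXCL1 (1.15 to 0.463 CPM, -1.30) and CXCL8 (14.7 to 10.9 CPM, -0.42) also fell, in a list of 6 other CXC chemokines of which 2 rose and 4 fell. Of 18 chemoattractant receptors 9 rose and 6 fell, beside 28.6% and 27.9% of all tested genes. The receptors for bacterial formyl peptides FPR2 (2.02 to 15.2 CPM, 2.91) and FPR1 (3.84 to 25.9 CPM, 2.76) rose most, and CXCR4, the receptor for CXCL12, fell most, from 94.7, 91.5 and 95.1 CPM to 12.7, 14.9 and 15.2 CPM (-2.71, SE 0.06). The median of these receptors was 0.10 and turned to -0.15 with no scaling, so the list had no direction of its own.

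Some genes were read almost only after IFN-γ. IDO1, which starts tryptophan breakdown, had 0 counts over the untreated libraries and 328 over the treated ones (4.81, 3.57 and 4.95 CPM), at least 130-fold higher when the untreated group is set to a floor of 3 counts. FAM107A, a stress-induced actin-binding protein, had 0 and 531 counts (at least 211-fold higher) and ZBP1, a sensor of Z-form nucleic acid, 0 and 138 (at least 54.8-fold). The non-coding RNA SIMALR had 2 and 403 counts, a ratio of 240 with an interval of 66.0 to 1989. By the rule of at most 3 counts over one group and at least 2 CPM in every library of the other, 8 genes were read almost only with IFN-γ and 0 almost only without it. The tally turned on the level asked for, since with at least 30 counts over the other group in place of 2 CPM it was 57 and 45.

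**Figure D2:**
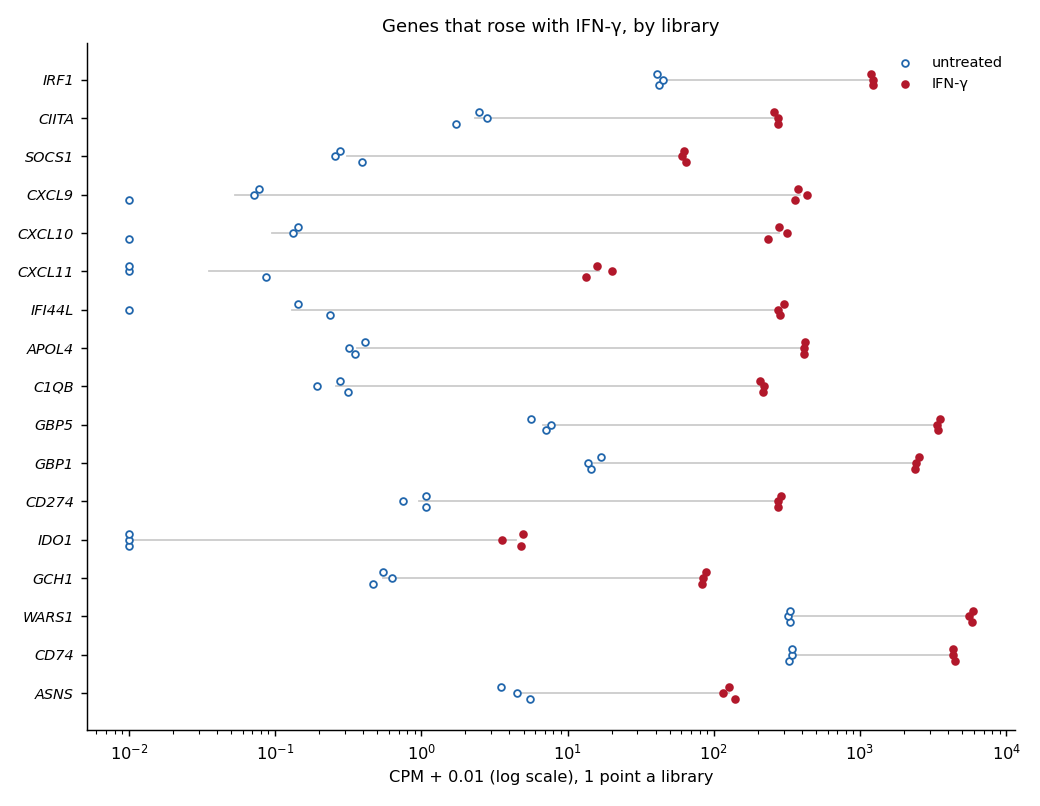
CPM in each of the 6 wild-type libraries (points, log axis, values raised by 0.01 so that 0 can be drawn) for strongly rising genes, with the untreated and IFN-γ libraries in separate colours. For every gene drawn the treated libraries lie above the untreated ones, and for CXCL9, CXCL10, CXCL11, IFI44L and IDO1 at least 1 untreated library is at 0.

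The guanylate-binding proteins (GBPs) are GTPases that coat and disrupt vacuoles holding pathogens. Transcripts of GBP5, GBP1, GBP2 and GBP4 became abundant in treated cells, while those of GBP3, GBP7 and GBP6 stayed lower. All 7 tested GBP genes rose, with a median of 6.56 (5.90 over 8 genes of the list with no filter on low counts). They lie together on chromosome 1, 6 of them in the span chr1:89052319-89386461 from GBP1 to GBP6 with GBP3 next to it, and all 7 tested genes of that span rose, the pseudogene PTGES3P1 included. GBP5 stood at 7.17, 7.65 and 5.60 CPM and then at 3405, 3351 and 3503 CPM, a rise of 8.97 (SE 0.06, adjusted p = 7.6e-41). GBP1 went from 14.4, 13.8 and 16.9 CPM to 2381, 2430 and 2540 CPM (7.35, SE 0.06, adjusted p = 1.2e-39). No untreated library of either gene came near a treated one. GBP4 rose from 13.2 to 1566 CPM (6.89), GBP7 from 0.190 to 17.5 CPM (6.56), GBP2 from 44.1 to 1679 CPM (5.25) and GBP3 from 24.4 to 234 CPM (3.27). GBP6 remained scarce, with 2 counts before and 38 after (a ratio of 22.6, interval 5.85 to 194). Per kilobase of exon, GBP1 at 491 and GBP5 at 419.96 CPM per kilobase led the family with IFN-γ, ahead of GBP2 at 267 and GBP4 at 256.

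The apolipoprotein L genes, whose best known member APOL1 kills trypanosomes and whose member APOL3 lyses bacteria in the cytosol, rose in all 5 cases tested, with a median of 3.93. APOL4 was almost unread without IFN-γ, at 0.343, 0.308 and 0.403 CPM, and had 413, 411 and 423 CPM with it. The change was 10.19 (SE 0.08, adjusted p = 1.1e-39), and no treated library came near an untreated one. APOL6 rose from 64.6 ± 1.94 to 1019 ± 44.5 CPM (3.98), APOL3 from 5.55 to 83.5 CPM (3.93), APOL1 from 21 to 299 CPM (3.83) and APOL2 from 39.8 to 263 CPM (2.72). They lie in the span chr22:35648395-36267530, in which 5 of 6 tested genes rose, and RBFOX2, an unrelated splicing factor that lies between APOL6 and APOL3, did not pass the test.

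Genes first known from the antiviral type I interferon response rose almost without exception. Of 50 such genes 49 rose and none fell, with a median of 2.88. The member that did not pass was APOBEC3A, a cytidine deaminase, at under 0.4 CPM in each library. IFI44L had 0.229, 0 and 0.134 CPM without and 282, 273 and 300 CPM with IFN-γ (11.24, SE 0.13). With so few untreated counts this size too is loosely fixed. IFI27 rose from 0.167 to 74.6 CPM (8.84), RSAD2, the enzyme viperin, from 0.687 to 118 CPM (7.43), IFITM1, which blocks viral fusion, from 0.580 to 87.5 CPM (7.26), and the antiviral GTPase MX1 from 3.05 to 226 CPM (6.22). IFITM1 lies within the bounds of IFITM2 on the same strand, so its level may depend on how shared reads were assigned. The 4 IFIT genes at chr10:89283694-89421001, whose products bind viral RNA ends, had a median rise of 5.22, with IFIT2 at 5.39 and 504 CPM and IFIT3 at 20.8 and 736 CPM. OAS1, OAS2 and OAS3, which make the activator of RNase L, rose by 2.66, 4.87 and 3.71. Of the interferon-induced ADP-ribosyl transferases and Schlafen genes 9 of 10 rose. PARP14 went from 98.1 to 1764 CPM (4.17) and its neighbour PARP9 from 40.0 to 528 CPM (3.72), while SLFN13, an RNA-cutting enzyme, fell from 37.3 to 24.0 CPM (-0.63).

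Machinery for showing peptides to CD8 T cells rose. Of 19 tested MHC class I genes 18 rose, none fell, and the median was 1.79. In the whole list 11 genes lie between 28 and 34 Mb of chromosome 6, a region unevenly counted here, as given below. Of those 11, 4 had under 30 counts in every wild-type library. The peptide pump TAP1 went from 43.7, 41.5 and 36.8 CPM to 651, 846 and 1104 CPM. The treated libraries spread widely (867 ± 227 CPM), but none came near an untreated library (4.42, SE 0.16, adjusted p = 1.7e-21). The immunoproteasome subunits PSMB10 (23.3 to 116 CPM, 2.31), PSMB9 (9.39 to 39.4 CPM, 2.08) and PSMB8 (53.5 to 186 CPM, 1.79) rose, as did the activator subunits PSME2 (54.4 to 425 CPM, 2.97) and PSME1 (100.1 to 356 CPM, 1.83). NLRC5, the transcriptional activator of class I genes, rose from 51.5 to 380 CPM (2.89), the light chain B2M from 1017 to 2144 CPM (1.08), and the trimming enzymes ERAP2 (8.30 to 28.6 CPM, 1.79) and ERAP1 (203 to 424 CPM, 1.07) rose as well. HLA-E rose from 110 ± 20.4 to 382 ± 37.3 CPM (1.80). Of 33 subunits of the constitutive proteasome 23 rose, 2 of them by at least 1, and 2 fell. Their median was small, at 0.27, or 0.15 with upper-quartile scaling and 0.02 with no scaling.

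Class II genes, which show peptides to CD4 T cells, were among the strongest rises. Of 21 tested, 18 rose and 2 fell, with a median of 3.17. HLA-DQA1 went from 2.10, 2.28 and 2.78 CPM to 580, 576 and 596 CPM (7.93, SE 0.07, adjusted p = 3.9e-38) and HLA-DPA1 from 2.59, 2.53 and 2.42 CPM to 420, 591 and 627 CPM (7.76, SE 0.13). HLA-DRB1 rose from 104 to 1441 CPM (3.79), CD74, the invariant chain that guides class II molecules, from 337 ± 9.35 to 4359 ± 68.3 CPM (3.69), HLA-DMA, which loads the peptide, from 5.31 to 48.5 CPM (3.17), and the processing protease CTSS from 704 to 2152 CPM (1.61). HLA-DOA had 2 and 268 counts, a ratio of 160 (43.8 to 1325). The members that fell were CD9, a tetraspanin (365 to 103 CPM, -1.82), and HLA-DRA at 4.88, 4.13 and 0 CPM without and 0.0802, 0.266 and 0.521 CPM with IFN-γ, whose libraries overlapped and whose fall did not pass with DESeq2 (adjusted p = 0.086) or with limma-voom (adjusted p = 0.48). Levels of HLA genes in these files are not to be taken as the true abundance: HLA-B stood at 0.216 to 1.00 CPM, HLA-C did not reach the count filter, and TAPBP, the peptide editor, ranged from 0.738 to 20.7 CPM within the untreated libraries and from 1.92 to 35.2 CPM within the treated ones. Tested genes of 5 CPM or more between 28 and 34 Mb of chromosome 6 had a median SD of 0.101 (log2 CPM, 78 genes), against 0.0781 for 11098 genes elsewhere.

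Ligands that brake or support T cells also changed. Of 21 checkpoint and costimulatory genes 15 rose and 4 fell (median 0.67). CD274, which encodes the inhibitory ligand PD-L1, had 1.07, 0.740 and 1.07 CPM without and 276, 277 and 290 CPM with IFN-γ (8.20, SE 0.08, adjusted p = 7.3e-38). Its treated libraries lay close together and far above the untreated ones. Its neighbour PDCD1LG2 (PD-L2) rose from 3.75 to 41.3 CPM (3.45), and the stimulatory receptors and ligands CD40 (15.8 to 171 CPM, 3.43) and CD86 (48.0 to 226 CPM, 2.23) rose with them. The members that fell most were CD70 (13.4 to 4.75 CPM, -1.49) and ICOSLG (8.45 to 4.98 CPM, -0.77).

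Among cytokine genes, members of the TNF superfamily and of the IL-15 and IL-18 systems rose most. Of 20 tested cytokine and cytokine-binding genes 13 rose and 3 fell (median 0.88). TNFSF10, the death ligand TRAIL, rose from 4.36 ± 1.05 to 187 ± 3.14 CPM (5.44), and TNFSF13B, the B cell survival factor BAFF, from 2.79 ± 0.589 to 120 ± 4.78 CPM (5.44). IL15 was barely read (2 and 85 counts, a ratio of 50.6, interval 13.6 to 425), whereas IL15RA, the chain that presents it, rose from 1.25 to 39.8 CPM (4.98). IL18BP, the decoy that captures IL-18, rose from 27.7 to 357 CPM (3.69), and IL18 itself measured 18 and 17.1 CPM with overlapping libraries (-0.07, adjusted p = 0.48, and -0.32 with no scaling, where it passed). Classic inflammatory cytokines were scarce. TNF rose from 0.495, 0.740 and 0.604 CPM to 2.32, 2.81 and 2.39 CPM (2.02, SE 0.37), IL1B from 4.67 to 14 CPM (1.58), and IL6 and IL12B had too few counts to be tested. OSM (1.07 to 0.0534 CPM, -4.19), TNFSF14 (63.9 to 17.2 CPM, -1.89) and CSF1, the macrophage growth factor (214 to 108 CPM, -0.98), fell. Of 26 cytokine receptors 15 rose and 8 fell, beside 28.6% and 27.9% of all tested genes. CSF2RB, the shared chain of the GM-CSF and IL-3 receptors, rose from 143 to 512 CPM (1.84), IL12RB1 from 13.1 to 53.6 CPM (2.04) and IL10RA from 129 to 322 CPM (1.33), while the granulocyte factor receptor CSF3R fell from 111 to 47.8 CPM (-1.22).

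Genes of tryptophan handling and of the response to lack of amino acids rose. In the list for tryptophan, arginine and itaconate metabolism 10 of 13 tested genes rose and none fell (median 1.20). WARS1, the cytosolic tryptophanyl-tRNA synthetase, went from 333, 322 and 332 CPM to 5862, 5531 and 5943 CPM. The rise of 4.13 (SE 0.04, adjusted p = 9.4e-39) was, at 5449.5 CPM, the greatest gain of any called gene in TMM-scaled CPM. GCH1, which starts synthesis of the cofactor tetrahydrobiopterin, had 0.457, 0.617 and 0.537 CPM and then 83.2, 84.5 and 88.1 CPM (7.28). KYNU, an enzyme further down the tryptophan pathway, rose from 46.1 to 103 CPM (1.17) and the amino acid carrier SLC7A5 from 45.9 to 234 CPM (2.35). ACOD1, which makes itaconate, had 0 and 50 counts (at least 19.9-fold higher) and stayed under 1 CPM. Of 28 genes of the unfolded protein and integrated stress response 22 rose and 3 fell (median 0.84). The greatest rises were those of known targets of the transcription factor ATF4. The asparagine synthetase ASNS went from 5.49, 4.47 and 3.49 CPM to 140, 115 and 127 CPM (4.84, SE 0.09), the serine synthesis genes PSAT1 from 10.9 ± 0.414 to 261 ± 24.5 CPM (4.58) and PHGDH from 32.6 ± 3.56 to 182 ± 25.7 CPM (2.48), and the glutathione-degrading CHAC1 from 1.76 to 35.9 CPM (4.33). SESN2 rose from 29.6 to 124 CPM (2.06), TRIB3 from 38.6 to 147 CPM (1.93), DDIT3 from 28.9 to 71.4 CPM (1.30) and ATF4 from 302 to 549.9 CPM (0.87). The chaperone partners MANF (-0.31), SDF2L1 (-0.29) and DNAJC3 (-0.25), which belong to the endoplasmic reticulum side of the list, fell slightly.

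Complement genes that rose strongly included those of the C1q chains and the C1 inhibitor. Of 22 tested 15 rose and 5 fell (median 0.58, or 1.23 with no filter on low counts). SERPING1, the C1 inhibitor, rose from 18.9 ± 1.26 to 1027 ± 23.0 CPM (5.76). The 3 chains of C1q, encoded side by side at chr1:22636506-22661538, rose unequally: C1QB from 0.253 to 216 CPM (9.74), C1QC from 10.2 to 214 CPM (4.38) and C1QA from 14 to 155 CPM (3.46). Divided by exon length they stood at 135, 160 and 122 CPM per kilobase with IFN-γ, against 0.158, 7.68 and 11 without it, so the chains, unequal before treatment, ended close together. The protease C1S rose from 1.58 to 24.6 CPM (3.97) and C3 from 197 to 366 CPM (0.90). CR1, a receptor for opsonised particles, fell from 37.4 to 6.88 CPM (-2.45), properdin (CFP) from 12.0 to 5.94 CPM (-1.01) and factor D (CFD) from 36.8 to 24.5 CPM (-0.59).

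Sensors and executioners of inflammatory cell death rose. Of 21 inflammasome, pyroptosis and necroptosis genes 16 rose and NINJ1 fell slightly (-0.13), with a median of 1.02. AIM2, the sensor of DNA in the cytosol, rose from 2.29, 1.6 and 2.35 CPM to 168, 166 and 175 CPM (6.36, SE 0.08). The inflammatory caspases CASP5 (0.582 to 10.4 CPM, 4.14), CASP1 (36.7 to 166 CPM, 2.19) and CASP4 (72.1 to 237 CPM, 1.72) rose, and so did the necroptosis effector MLKL (21 to 58.9 CPM, 1.49) and the pore-former GSDMD (19.6 to 39.9 CPM, 1.02). NLRP3 rose by less, from 104 to 147 CPM (0.50). Of 24 apoptosis genes 15 rose and 3 fell. The death receptor FAS (3.49 to 39.8 CPM, 3.52), XAF1 (4.35 to 87.3 CPM, 4.32) and PMAIP1, the BH3-only protein NOXA (10.2 to 47.6 CPM, 2.22), rose, and BCL2, which opposes apoptosis, fell from 13.4 to 6.26 CPM (-1.10).

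Among Toll-like receptors and nucleic acid sensors 16 of 23 rose and 4 fell (median 0.76). The endosomal RNA receptors TLR7 (4.83 to 57.6 CPM, 3.58) and TLR8 (19.1 to 136 CPM, 2.83) rose most, next to NOD2, a sensor of bacterial cell wall (8.30 to 61.8 CPM, 2.90). TLR4, the receptor for lipopolysaccharide, rose from 122 to 279 CPM (1.19) and TLR2 from 110 to 150 CPM (0.45), while IRAK3, an inhibitor of their signalling, fell from 76.7 to 28.9 CPM (-1.41). The NF-kB list had 11 rises and 4 falls among 22 genes and a median of 0.17 that turned to -0.08 with no scaling. TNFAIP2 (136 to 683 CPM, 2.33) rose most, and NFKBIA, the inhibitor that NF-kB itself induces, fell from 49.7 to 28.6 CPM (-0.80). For the oxidative burst, the NADPH oxidase subunits NCF1 (32.8 to 169 CPM, 2.37, a gene with near-identical pseudogenes) and CYBB (552 to 1265 CPM, 1.20) rose, and the mitochondrial superoxide dismutase SOD2 rose from 106 to 1049.8 CPM (3.31). Catalase (CAT) fell from 269 to 120 CPM (-1.16). Of these 17 genes 10 rose and 5 fell, with a median of 0.25 that was 0.00 with no scaling.

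**Figure D3:**
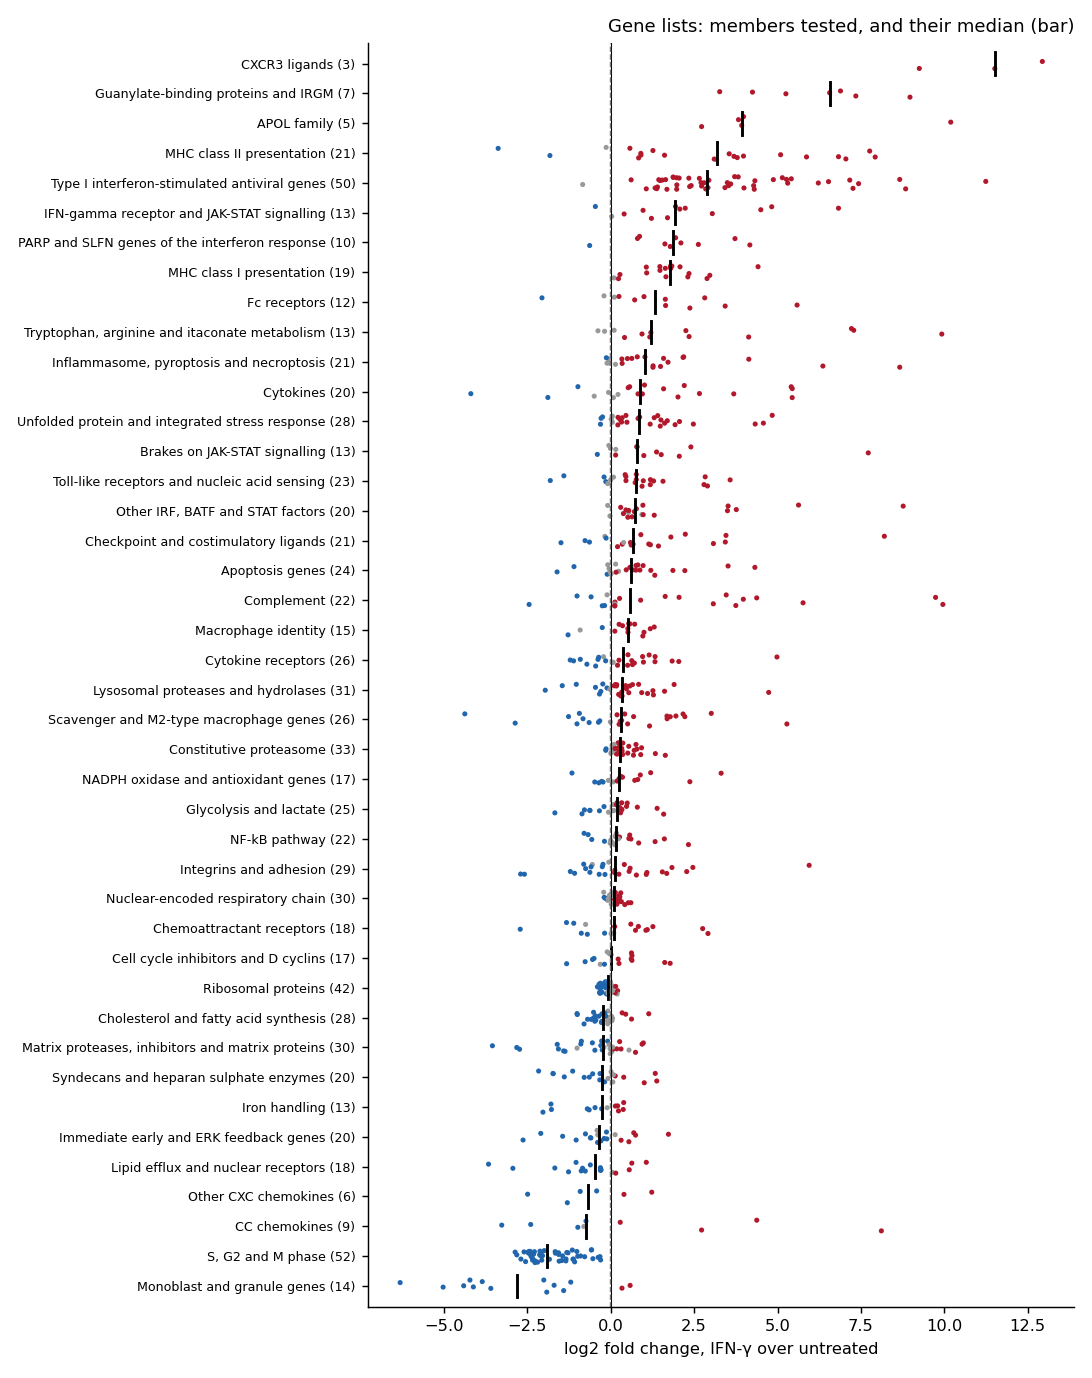
Median log2 fold change (IFN-γ over untreated, wild type) of the tested members of each gene list, with single members as points and a dashed line at the median of all tested genes (-0.02). The CXCR3 ligands and GBPs lie furthest above the line, and the S, G2 and M phase genes and the monoblast and granule genes furthest below it.

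Receptors for antibody and for particles changed in a pattern that mixed classical and alternative markers. Of 12 tested Fc receptors 9 rose and 1 fell (median 1.32). FCGR1A, the high-affinity IgG receptor CD64, went from 42.9, 45.3 and 45.2 CPM to 310, 318 and 313 CPM (2.82, SE 0.04, adjusted p = 3.2e-32), although a related pseudogene may share some of its reads. FCER1G, the chain through which it signals, rose from 527 to 866 CPM (0.72), FCER2 from 6.52 to 34.1 CPM (2.37), and the IgA receptor FCAR fell from 3.84 to 0.916 CPM (-2.06). Of 26 scavenger and alternative-activation genes 16 rose and 9 fell (median 0.31). SIGLEC1, the interferon-induced sialoadhesin, rose from 100.1 to 808 CPM (3.01), and so did the lectins CLEC10A (0.814 to 31.8 CPM, 5.28) and CD209 (26.6 to 120 CPM, 2.17) and the apoptotic-cell receptor AXL (49.4 to 231 CPM, 2.22). MERTK, a receptor of the same family, fell from 359 to 229 CPM (-0.65). F13A1, the coagulation factor XIII chain (3.44 to 0.161 CPM, -4.38), and MARCO (1.00 to 0.132 CPM, -2.87) fell, as did GPNMB, one of the most abundant transcripts of untreated cells, from 2739.6 ± 68.6 to 1427 ± 85.2 CPM (-0.94). Lysosomal genes rose in 22 of 31 cases and fell in 8 (median 0.33). CTSZ rose from 930.3 to 3470.5 CPM (1.90), and CTSV (7.07 to 1.81 CPM, -1.96) and CTSK (9.72 to 4.75 CPM, -1.03) fell. Of 15 macrophage identity genes 12 rose, CEBPB (34.2 to 84.5 CPM, 1.30) and CD14 (322 to 732 CPM, 1.18) most. LYZ fell from 1295 to 533 CPM (-1.28), with 34% of its exon bases shared with another gene.

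The clearest fall was in genes of cell division. All 52 tested genes of S, G2 and M phase fell, against 27.9% of all tested genes, and 43 of them fell by at least 1 (8.81% of all). Their median was -1.92. TOP2A, the topoisomerase that untangles replicated DNA, stood at 294, 264 and 255 CPM without and 43.6, 52.1 and 42.6 CPM with IFN-γ (-2.55, SE 0.06, adjusted p = 8.6e-27). MKI67, which encodes the Ki-67 antigen, went from 247, 264 and 223 CPM to 40.0, 50 and 44.0 CPM (-2.45, SE 0.06). The groups of libraries did not overlap for either gene. The members that fell most were KIF20A, a cytokinesis motor, at 33.6 and 4.58 CPM (-2.87), CDC20, an activator of the anaphase-promoting complex, at 127 and 18 CPM (-2.82) and CENPF, a kinetochore protein, at 119 and 18.4 CPM (-2.69). Smaller falls were those of PCNA, the sliding clamp of DNA replication, from 52.7 to 35.3 CPM (-0.57), and of the replication helicase genes MCM2 from 62.3 to 43.0 CPM (-0.54) and MCM5 from 85.7 to 65.9 CPM (-0.38). Of 17 cell cycle inhibitors and D cyclins 8 rose and 5 fell, with a median of 0.01 that was -0.10 with upper-quartile scaling and -0.24 with no scaling. GADD45B (10.0 to 34.7 CPM, 1.78) and CDKN1A, the inhibitor p21 (317 to 486 CPM, 0.61), rose, and GADD45A (10.5 to 4.22 CPM, -1.32) fell.

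Genes of the precursor state fell with them. Of 14 tested monoblast and granule genes 12 fell, each by at least 1, and 2 rose, with a median of -2.80, or -2.71 with the genes at 0 set to their bounds. It was -1.97 with no filter on low counts and -2.01 with the wild-type libraries fitted alone, which change the members that are counted. MYB, the factor that holds blood precursors in an immature state, had 84.7, 79.5 and 74.7 CPM without and 3.33, 5.43 and 4.95 CPM with IFN-γ (-4.12, SE 0.09, adjusted p = 1.1e-27). The granule proteases PRTN3 (24.2 to 1.30 CPM, -4.22), CTSG (40.1 to 3.33 CPM, -3.60) and ELANE (17.5 to 4.35 CPM, -2.01) and the membrane protein MS4A3 (9.80 to 0.305 CPM, -5.03) fell. SERPINB10, a protease inhibitor of myeloid precursors, had 172 counts without and 0 with IFN-γ, at least 48.1-fold lower. BPI (2.54 to 3.80 CPM, 0.58) and CEBPE (12.5 to 15.8 CPM, 0.34) rose, calls that both were lost with no scaling. The summed monoblast markers given at the start moved in the same direction as the cell cycle genes, and whether fewer dividing cells or less RNA in each of them lay behind either fall was not tested.

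Outside these lists, large falls among genes that reached 5 CPM were in genes of varied function. HP, which encodes haptoglobin, went from 36.6, 30.2 and 28.8 CPM to 1.04, 0.456 and 1.00 CPM (-5.27, SE 0.15, adjusted p = 2.8e-24). ANGPT4, an angiopoietin, fell from 5.04 to 0.111 CPM (-5.49), VIT from 17.2 to 0.523 CPM (-5.06), and CRABP2, a retinoic acid carrier, from 5.53 to 0.263 CPM (-4.35). No treated library of these genes reached the lowest untreated one.

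**Figure D4:**
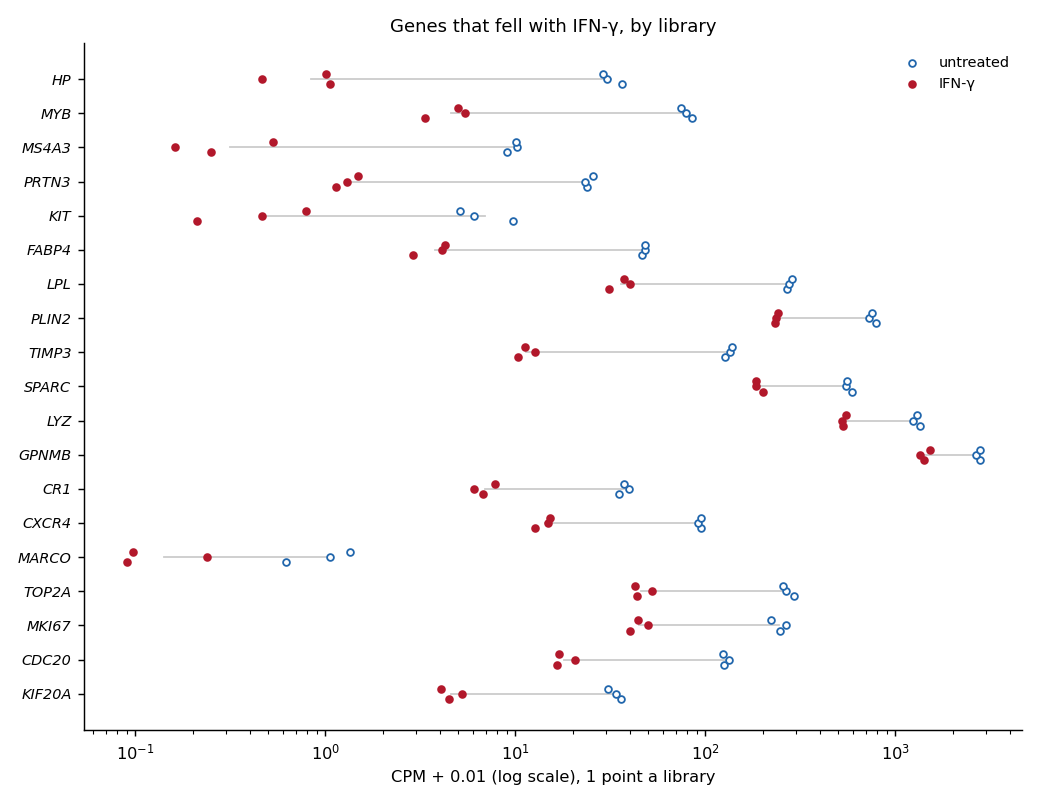
CPM in each of the 6 wild-type libraries (points, log axis, values raised by 0.01 so that 0 can be drawn) for strongly falling genes, with the untreated and IFN-γ libraries in separate colours. For every gene drawn the treated libraries lie below the untreated ones.

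Most genes in a list for the handling and efflux of lipids fell. Of 18 genes in this list, which includes lipid carriers and nuclear receptors, 13 fell and 4 rose (median -0.46). LPL, lipoprotein lipase, fell from 268, 275 and 284 CPM to 31, 39.9 and 37.3 CPM (-2.93, SE 0.06), and the fatty acid carrier FABP4 from 46.4, 48.1 and 48.0 CPM to 2.89, 4.10 and 4.26 CPM (-3.66, SE 0.11). PLIN2, which coats lipid droplets, fell from 757 ± 28.9 to 237 ± 4.70 CPM (-1.68), PPARG, a nuclear receptor of lipid storage, from 94.4 to 39.3 CPM (-1.27) and CYP27A1 from 451 to 251 CPM (-0.85). NR1H2, an oxysterol receptor, rose from 35.6 to 74.7 CPM (1.07). Of 28 genes of cholesterol and fatty acid synthesis 16 fell and 4 rose (median -0.22), among them SQLE (72.5 to 35.9 CPM, -1.01) and FASN (184 to 91.9 CPM, -1.0), while SREBF1 rose from 68.4 to 151 CPM (1.14). Glycolysis genes had no shared direction, with 14 of 25 rising, 7 falling and a median of 0.19 that was -0.06 with no scaling. Over all tested genes 28.6% rose and 27.9% fell. The glucose carrier SLC2A3 (45.4 to 137 CPM, 1.59) rose and ENO2 (21.7 to 6.79 CPM, -1.68) and LDHA (138 to 89.2 CPM, -0.63) fell. Respiratory chain genes moved little, with 16 rises and 2 falls among 30 and a median of 0.10, or -0.15 with no scaling. Of 42 ribosomal protein genes 19 fell and 3 rose, all by 0.40 or less (median -0.08).

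Contacts with matrix and with other cells changed in both directions. Of 29 integrin and adhesion genes 15 rose and 12 fell (median 0.12, or -0.14 with no scaling). Over all tested genes 28.6% rose and 27.9% fell. VCAM1, a ligand for leukocyte integrins, rose from 0.229, 0.370 and 0.738 CPM to 24.2, 32.4 and 27.8 CPM (5.95, SE 0.18), ICAM1 from 105 to 507 CPM (2.28), and ITGB7 and its partner ITGA4 from 326 to 1164 CPM (1.83) and from 161 to 337 CPM (1.06). ITGB3 (11.3 to 1.74 CPM, -2.70), ITGA3 (59.0 to 9.79 CPM, -2.59) and ITGB5 (304 to 131 CPM, -1.21), which bind matrix proteins, fell. Of 30 genes for matrix proteins, matrix proteases and their inhibitors 15 fell and 7 rose (median -0.23). TIMP3, an inhibitor of metalloproteinases, fell from 127, 135 and 138 CPM to 10.3, 12.6 and 11.2 CPM (-3.55, SE 0.07), SPARC from 564 to 190.1 CPM (-1.57) and COL4A1 from 8.65 to 1.23 CPM (-2.82). MMP9, the gelatinase and one of the most abundant transcripts, was at 3608 to 3816 CPM without and 3773 to 3803 CPM with IFN-γ, and did not pass the test (0.04, adjusted p = 0.39), although it was called lower with upper-quartile scaling (-0.08) and no scaling (-0.21). Among syndecans, SDC3, the gene targeted in the knockout cells, had 196, 252 and 242 CPM without and 578, 590 and 572 CPM with IFN-γ (1.33, SE 0.06, adjusted p = 1.1e-19). SDC1 (0.795 to 0.178 CPM, -2.16), SDC4 (84.5 to 58.0 CPM, -0.54) and SDC2 (302 to 242 CPM, -0.32) fell. Of the 20 syndecan and heparan sulphate genes 11 fell and 5 rose (median -0.25).

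Early response genes of the ERK pathway, which PMA activates, fell more often than they rose, with 12 falls and 5 rises among 20 (median -0.34). The feedback phosphatases DUSP2 (12.0 to 1.93 CPM, -2.63) and DUSP4 (35.5 to 8.30 CPM, -2.10) and the transcription factor EGR1 (11.5 to 4.25 CPM, -1.44) fell, while DUSP5 (14.8 to 49.1 CPM, 1.73) and JUNB (56.4 to 94.6 CPM, 0.74) rose. Of 13 iron genes 7 fell and 5 rose. The iron exporter SLC40A1 fell from 14.6 to 4.18 CPM (-1.79) and SLC11A1, which pumps iron out of phagosomes, from 43.7 to 26.9 CPM (-0.70), and the ferritin light chain FTL rose from 3071 to 4016 CPM (0.39).

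Seen as shares of all counts, the 10 most abundant genes of each library held 4.27 to 4.45% without and 4.78 to 4.94% with IFN-γ. The gains and losses that follow are in TMM-scaled CPM, which are not shares of all counts. The scaling factors were 1.11 to 1.12 without and 0.93 to 0.94 with IFN-γ, so a ranking by shares can differ. Among the greatest gains after that of WARS1 were those of A2M, the protease inhibitor alpha-2-macroglobulin (4060.5 to 8330.5 CPM, 1.04), CD74, GBP5, CTSZ, GBP1 and the actin gene ACTB (3822.9 to 6104.1 CPM, 0.67). The greatest losses were smaller: GPNMB, LYZ, PLIN2, APLP2 (2650.0 to 2165.2 CPM, -0.29), CHI3L1 (5195.0 to 4731.0 CPM, -0.13), PCM1 (869.9 to 485.1 CPM, -0.84), VAT1 (775.4 to 400.9 CPM, -0.95) and SPARC. The rise of ACTB and the falls of APLP2 and CHI3L1 are called relative to the average gene.

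The response of the wild-type cells was compared with that of the SDC3-KO cells by testing the difference of the log2 fold changes, which share no library. SDC3 itself stood at 43.9 to 49.9 CPM without and 237 to 244 CPM with IFN-γ in the knockout libraries, below the wild-type libraries of the same treatment. The difference of responses passed for 2647 genes, 15.5% of those tested, with the wild-type response the more positive in 1345 and the more negative in 1302. Of the 2776 genes that changed by at least 1 in wild type, 742 (26.7%) had such a difference, 2426 changed in the same direction in the knockout cells and passed there, and 3 passed in the opposite direction. Across all tested genes the log2 fold changes of the cell types correlated with r = 0.871, where genes are not independent replicates. For genes at the core of the response the difference was 0.14 for GBP5 (adjusted p = 0.34) and -0.04 for WARS1 (adjusted p = 0.64), but GBP1 rose further in knockout cells (difference -1.40, SE 0.08). IFI44L rose by 11.24 in wild type and 8.64 in knockout cells, a difference of 2.60 (SE 0.42, adjusted p = 2.3e-05). TNF rose by 2.02 in wild type and had a log2 fold change of -1.0 in knockout cells that did not pass (adjusted p = 0.35), a difference of 3.02 (SE 0.99, adjusted p = 0.034) at levels under 3 CPM. In the other direction VCAM1 differed by -3.54 (SE 0.57), DUSP5 by -2.94 (SE 0.16), LAMP3, a lysosomal protein of mature dendritic cells (0.283 to 7.64 CPM in wild type), by -2.36, and HLA-DQA1 by -2.27, all rising further in knockout cells. CSF1 fell by 0.98 in wild type and rose by 1.51 in knockout cells, a difference of -2.49 (SE 0.12). In the cell division list 46 of 52 genes differed, with a median of -1.92 in wild type and -3.51 in knockout cells. KIF20A, for example, fell by 2.87 in wild type and by 4.86 in knockout cells, a difference of 1.99.

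**Figure D5:**
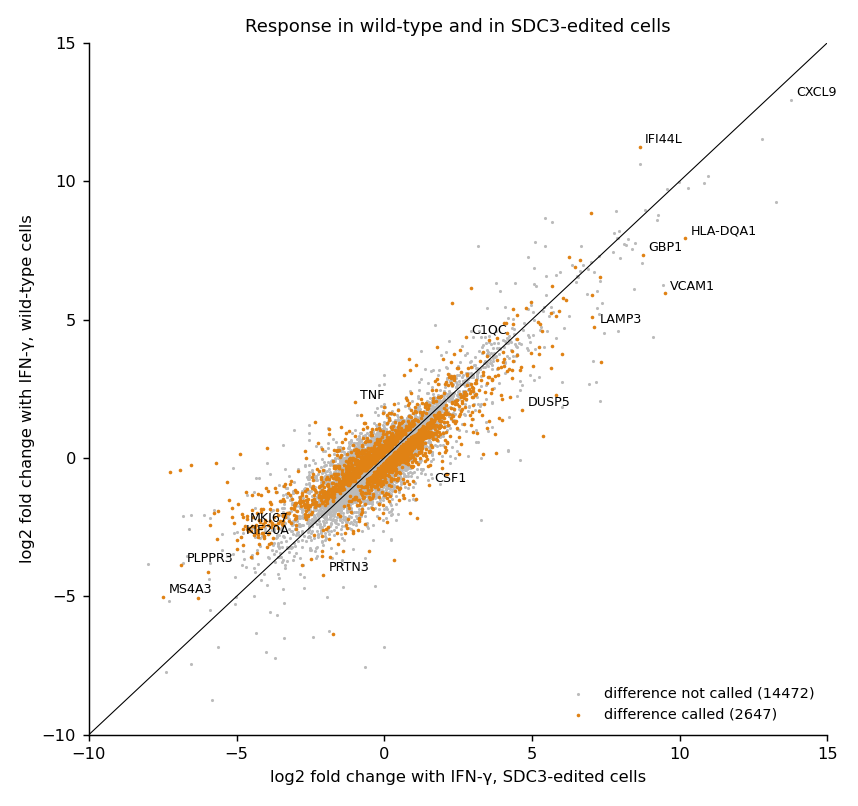
Log2 fold change with IFN-γ in wild-type cells (vertical axis) against that in SDC3-KO cells (horizontal axis), 1 point per tested gene, with genes whose responses differed by the test in colour. Most points lie along the diagonal, and CSF1 and TNF are the marked genes with values of opposite sign in wild-type and SDC3-KO cells.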

How the data were processed

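RNA was sequenced in 12 libraries, each made from 1 µg of total RNA with a stranded mRNA kit, per the labels' protocols. The deposited values are whole-number counts per gene that the authors made with featureCounts 2.0.3, per the file headers, with read mates counted separately and no strand option, so overlapping and antisense genes cannot be told apart. The submitters' processing notes name hg38, fastp 0.23.2, STAR 2.7.10b, Picard 2.27.5 and MultiQC 1.13 without their roles. Symbols came from the GENCODE 29 annotation and the given name tables.

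From the counts, edgeR 4.0.16 (R 4.3.3) was run with TMM scaling and its default filter on low counts on the 12 libraries in a single fit whose terms were the 4 groups, with Benjamini-Hochberg adjustment over 17119 genes. The script was tested on simulated data. Genes were named by rule: a panel of 17 genes, the 12 largest changes each way at 5 CPM or more, the 8 largest gains and losses in CPM, and up to 3 members each way of 47 lists (981 genes in the table, 880 tested, 101 not), with every member of lists of up to 14 genes. MMP9, SLC7A5 and other list members outside these places were chosen with their values known, and some genes that the rule names are not reported here. The members and lists were chosen with earlier results of these data known. Alternatives were DESeq2 1.42.0, limma-voom (limma 3.58.1), other scalings and filters, a replicate block and leaving out each library.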

Additional observations from a re-analysis of the deposited data

Results flagged for a closer look

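Of 246 genes named above, 121 had a different log2 response to IFN-γ in wild-type and SDC3-KO cells by edgeR's test of the difference (adjusted p under 0.05), 79 of them by less than 1. Over all tested genes the number was 2647 (15.5%). Many of the named genes were picked for large wild-type changes, and some for large differences of responses. Their count is therefore no measure of how far the responses differed as a whole. The 42 that differed by at least 1 are given here as wild type minus knockout, all past that test.

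Genes of cell division fell less in wild type. The difference was 2.28 for MKI67, 2.11 for TOP2A, 1.99 for KIF20A, 1.40 for CENPF and 1.27 for CDC20. Of precursor genes, MS4A3 (2.45) and MYB (1.84) also fell less in wild type, whereas the granule proteases PRTN3 (-2.16), CTSG (-1.77) and ELANE (-1.21) fell further there.

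Among genes that rose in wild type, the response was the more positive there for TNF (3.02), IFI44L (2.60), IFI27 (1.83), the C1q chains C1QC (1.6) and C1QA (1.20), and IL1B (1.24). It was the less positive for VCAM1 (-3.54), DUSP5 (-2.94), LAMP3 (-2.36), the class II genes HLA-DQA1 (-2.27), HLA-DMA (-1.42) and HLA-DRB1 (-1.17), BATF3 (-1.48), GBP1 (-1.40), PAX5 (-1.27), PHGDH (-1.18), FCER2 (-1.03) and SDC3 (-1.0), the targeted gene.

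Among other genes that fell in wild type, the response was the more negative there for CSF1 (-2.49), CCL3 (-1.75), the integrins ITGA3 (-1.71) and ITGB3 (-1.64), DUSP2 (-1.58), TIMP3 (-1.45), NFKBIA (-1.23), the lipid genes FABP4 (-1.19) and LPL (-1.07), CXCR4 (-1.12), EGR1 (-1.03) and ENO2 (-1.02). It was the less negative for SLC11A1 (1.76) and VIT (1.23).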

How the results depend on the processing

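The count of called genes stayed within 1.5 times the main 9666 under DESeq2 (9433), limma-voom (9683), other scalings and filters, and leaving out each wild-type library (9014 to 9307). A replicate block gave 9600 called genes and 2588 genes with different responses. Same-numbered libraries correlated at -0.15, 0.12 and -0.09 in their deviations from the group means, and differently numbered ones at -0.20 to 0.25. With 3 libraries a group, these values cannot decide whether the replicate numbers mark pairs. With no scaling, 2767 genes were called higher and 8260 lower. At a log2 size of at least 1, 2776 genes were called, 1268 higher and 1508 lower, and 458 responses differed. Of 246 named genes, 237 kept direction and call under every alternative in which they had a value. With the filter at 5 CPM 227 of the named genes had one, and with the wild-type libraries fitted alone 244. JAK1 (-0.22 with no scaling), MMP9 (-0.078 with upper-quartile and -0.21 with no scaling) and TAPBP (from -2.61 without the third IFN-γ library to 0.85 without the second untreated one) turned, the last in the region of chromosome 6 that was unevenly counted. Of 47 list medians, 37 kept their sign under every alternative. The 10 others were small or rested on few members. With no scaling the medians were -0.24 for cell cycle inhibitors, -0.23 for B cell markers, -0.15 for T and NK cell markers, -0.15 for chemoattractant receptors, -0.15 for the respiratory chain, -0.14 for integrins, -0.080 for NF-kB, -0.058 for glycolysis and -0.00052 for NADPH oxidase genes. With upper-quartile scaling they were -0.10 for cell cycle inhibitors, -0.089 for B cell markers, -0.016 for T and NK cell markers, -0.0098 for chemoattractant receptors and -0.0097 for the respiratory chain. Chemoattractant receptors gave -0.093 without the low-count filter and -0.015 to 0.10 as single libraries were left out, which also turned cell cycle inhibitors (lowest -0.011), B cell (-0.083) and T and NK cell markers (-0.10), and the filter at 5 CPM gave 1.47 for CC chemokines and -0.091 for integrins.

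Each group had 3 libraries, no dose or time series, and no sign that they were separate cultures. Counts near the floor, as for CXCL9, CXCL10, CXCL11, IFI44L, IL15 and GBP6, fix direction but not size. Differences near 0 on the log2 scale turn on the scaling.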
